A study of Mus musculus with 8 samples.

Results

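The ligands and receptors of the epidermal growth factor (EGF) family were examined in NIH3T3 cells, an immortalised line of mouse fibroblasts, that were starved of serum and then given serum with or without cordycepin. The genes were the ligands Hbegf, Areg, Ereg, Tgfa, Btc and Nrg1, the receptors Egfr, Erbb2 and Erbb3, and the receptor inhibitor Errfi1. They were chosen by name, and every non-control probe that the array design assigned to one of these 10 names was taken, which gave 12 probes of 55681 on the array. Egfr had 3 probes and each other gene had 1. Cordycepin is 3′-deoxyadenosine, an adenosine analogue whose missing 3′ hydroxyl prevents an RNA chain from being extended past it. All cells were grown on 15 cm plates in 10% newborn bovine serum and starved in 0.5% serum for 24 h. The cordycepin plus serum group (3 arrays) received 20 µM cordycepin, dissolved in DMSO, for 90 min, with serum added for the last 30 min. The serum group (3 arrays) received 0.1% DMSO and the same 30 min of serum. The no serum group (2 arrays) was left without serum and is titled a control, and the treatment protocol gives control plates 0.1% DMSO. Cordycepin was never given without serum, so its effect could be seen only beside that of serum. RNA was measured on 1-colour Agilent arrays, on which each probe is a 60-base oligonucleotide.

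Ligands of this family are made as membrane-bound precursors, are released by metalloproteases of the ADAM family, and bind ErbB receptors on the same or on neighbouring cells. Ligand binding drives receptors to pair and to phosphorylate each other, which activates the Ras to ERK and PI3K to AKT routes. Fibroblasts that receive serum transcribe several of these ligands as immediate early or delayed early genes, together with Errfi1, a feedback inhibitor that binds the kinase domain of EGFR.

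Levels are given as the log2 of the processed signal minus the 75th percentile of that array, where 0 is the level of that percentile and 1 unit is a doubling of signal. This 75th percentile lay between 302.2 and 692 signal units, and the arrays detected 51.1 to 57.1% of probes well above background. Arrays of the same group correlated with r of 0.992 to 0.995 over probes, and arrays of different groups with r of 0.965 to 0.992. Testing was limited to the 30859 probes that some group detected well above background on all of its arrays, and a probe was called at a Benjamini-Hochberg adjusted limma p under 0.05 with a log2 difference of at least 1 in size. With cordycepin plus serum against serum, 7.56% of these were called higher and 2.99% lower. For serum against no serum 0.878% were called higher and 0.898% lower, and in the comparison of cordycepin plus serum with no serum 6.46% were called higher and 3.08% lower. The share of calls that were higher was 71.7% for the cordycepin effect and 59.7% after quantile normalisation. For the serum effect it was 49.5%, against 75% with normexp background correction and 23.2% when arrays were centred on spike-in probes. For cordycepin plus serum against no serum it was 67.8%, against 58.1% and 56.4% after quantile and spike-in scaling. All 9 fibroblast marker genes were well above background on every array. So were 3 of 4 endothelial markers (Kdr, Pecam1 and Tek, but not Cdh5), 4 of 5 leukocyte markers and 1 of 6 epithelial markers (Esrp1), while the epithelial Krt8 was on 7 arrays and Cdh1, Krt18 and Cdh5 on none.

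Among the 10 EGF family genes, 3 were higher after serum and lower again with cordycepin: the ligands Hbegf and Ereg, and the inhibitor Errfi1. Ereg rose 4.95-fold with serum and was 4.50-fold lower with cordycepin, and Errfi1 rose 4.76-fold and was 8.44-fold lower. Nrg1, Egfr and Erbb2 were measured on all arrays and were not called in any comparison. Areg, Tgfa, Btc and Erbb3 were not well above background on all arrays of any group, and so were not tested. Of the 8 probes that could be tested, 3 were called lower and 0 higher with cordycepin, beside 2.99% and 7.56% of all probes. With serum 3 were called higher and 0 lower, beside 0.878% and 0.898% of all probes. In limma without adjustment, 5 of the 8 probes had a p under 0.05 for the cordycepin effect, all of them lower, and 3 for the serum effect, all of them higher. The share of all probes at that unadjusted cutoff was not taken, so these and the unadjusted counts below have no baseline. At adjusted p under 0.05 without a minimum difference, limma gave 3614 of the 30859 probes higher and 2379 lower with cordycepin. Centring on spike-in probes put the median serum difference of all probes at -0.39, and none of the 3 rises was called: Hbegf was at 1.10, Ereg at 1.93 (adjusted p = 0.0645) and Errfi1 at 1.88 (adjusted p = 0.0822), which is 1.49, 2.32 and 2.26 above that median. With spike-in centring the SE was 0.56 for each of these 3 serum differences. In the main fit it was 0.28 for Hbegf, 0.25 for Ereg and 0.22 for Errfi1. The cordycepin and serum comparisons use the same serum arrays, so a chance deviation of those arrays would move both.

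**Figure D1:**
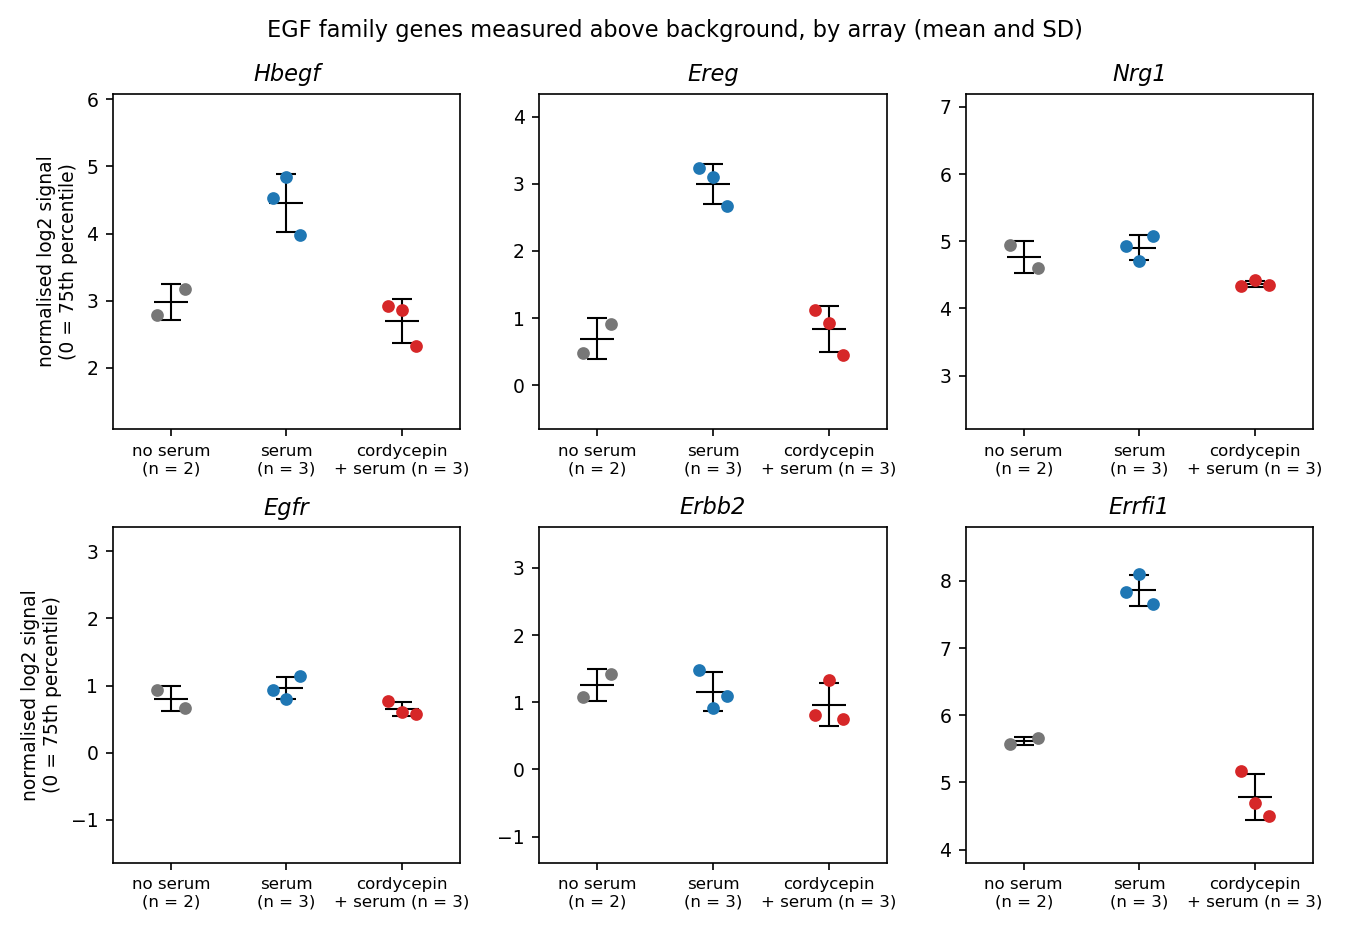
Normalised log2 signal (vertical axis, 0 is the 75th percentile of the array) of the 6 EGF family genes that were measured above background, with 1 point per array, a bar for the group mean and whiskers for the SD. Each panel spans 5 log2 units; the serum arrays of Hbegf, Ereg and Errfi1 lie above both other groups, while those of Erbb2 overlap with them.

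Hbegf encodes heparin-binding EGF-like growth factor, a ligand of EGFR and ErbB4. Its probe lies on chromosome 18, 36664738 to 36664797, minus strand (mouse build mm9, as are all probe positions here). The 3 serum arrays read 4.53, 4.84 and 3.99, the 2 arrays without serum 2.79 and 3.17, and the 3 cordycepin plus serum arrays 2.92, 2.86 and 2.33. Every serum array lay above all other arrays, and the 2 remaining groups overlapped. Cordycepin plus serum (2.70 ± 0.32, SD, n = 3) was lower than serum alone (4.45 ± 0.43, SD, n = 3) by a log2 difference of -1.75 (SE 0.25, adjusted p = 0.00161), a 3.36-fold difference. Serum was higher than no serum (2.98 ± 0.27, SD, n = 2) by 1.47 (SE 0.28, adjusted p = 0.0389), or 2.78-fold. This rise was close to the threshold. It was not called when only the arrays of both groups were fitted (adjusted p = 0.0907), when probes were not filtered (0.153), with slide row as a block (0.0584) or with spike-in scaling (0.802). It was also not called without any of 6 single arrays, at adjusted p of 0.0622 and 0.0742 without cordycepin replicates 1 and 2, 0.107 and 0.0853 without serum replicates 1 and 2, and 0.211 and 0.133 without no serum replicates 1 and 2. Cordycepin plus serum and no serum differed by -0.28 (95% interval -0.92 to 0.37, adjusted p = 0.571), which did not pass the test.

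Ereg encodes epiregulin, a ligand of EGFR and ErbB4. Its probe lies on chromosome 5, 91522553 to 91522612, plus strand. The serum arrays read 3.24, 3.10 and 2.67, the arrays without serum 0.48 and 0.91, and the cordycepin plus serum arrays 1.12, 0.93 and 0.45. The lowest serum array stood 1.55 log2 units above the highest cordycepin array and 1.76 above the highest array without serum. The log2 difference of cordycepin plus serum (0.83 ± 0.34, SD, n = 3) from serum alone (3.00 ± 0.30, SD, n = 3) was -2.17 (SE 0.22, adjusted p = 0.000284). Of the 30859 probes it ranked 100 from the lowest in this comparison. Serum was higher than no serum (0.69 ± 0.30, SD, n = 2) by 2.31 (SE 0.25, adjusted p = 0.00331), rank 62 from the highest. Between cordycepin plus serum and no serum the difference was 0.14 (95% interval -0.44 to 0.71, adjusted p = 0.768), and the arrays overlapped.

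Ereg lies in a cluster of EGF family ligand genes on chromosome 5. The probe for Epgn, which encodes the ligand epigen and belongs to the wider pathway list described further on, was 58.4 kb to the left of the Ereg probe on the plus strand. The probes for Areg and Btc were 47.5 kb and 264 kb to the right. Epgn was dim on all arrays, and with cordycepin it moved opposite to Ereg. It read -2.34, -2.28 and -2.61 with cordycepin plus serum, -5.07, -4.25 and -4.75 with serum and -4.45 and -4.70 without serum. With cordycepin Epgn was higher by 2.28 (SE 0.21, adjusted p = 0.000158), a 4.85-fold difference, and it was higher than without serum by 2.16 (SE 0.23, adjusted p = 0.000565). With normexp background correction the same difference with cordycepin was 1.03, and the call was kept. For the serum effect the difference of Epgn was -0.12 (SE 0.23) and was not called. The stretch from 50 kb left of the Epgn probe to 50 kb right of the Btc probe held 8 probes for 6 genes. Of 6 tested, Epgn was called higher and Ereg lower with cordycepin, beside 7.56% of all probes called higher and 2.99% lower. Mthfd2l, a mitochondrial folate enzyme gene whose probe lay 72.3 kb left of that of Ereg, differed by 0.26 (adjusted p = 0.119), and 3 probes for an opposite-strand lincRNA between Epgn and Ereg differed by 0.09 to 0.13. None of these 4 was called.

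**Figure D2:**
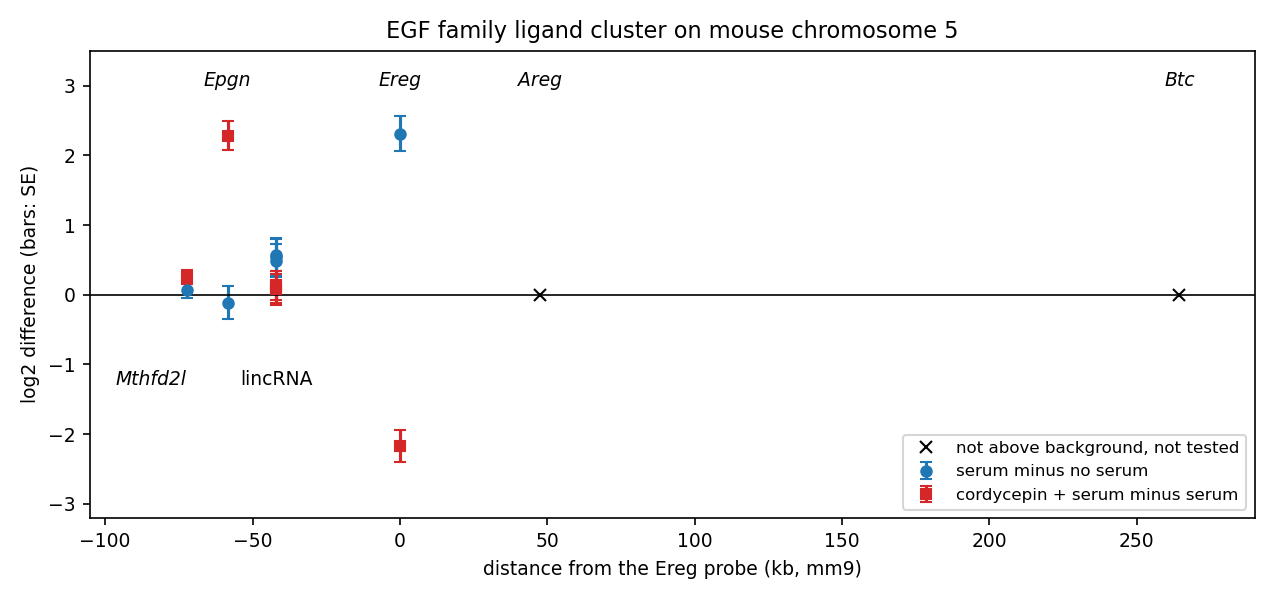
Log2 difference (vertical axis, bars are SE) for probes of the chromosome 5 ligand cluster against the distance of each probe from that of Ereg in kb (horizontal axis), for serum minus no serum (blue circles) and cordycepin plus serum minus serum (red squares). Ereg moves up with serum and down with cordycepin, Epgn moves up with cordycepin, and crosses mark Areg and Btc, which were not tested.

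Nrg1 encodes neuregulin 1, a ligand of ErbB3 and ErbB4. Its probe lies on chromosome 8, 32928500 to 32928559, minus strand. It read 4.33, 4.42 and 4.35 with cordycepin plus serum, 4.93, 4.70 and 5.07 with serum, and 4.94 and 4.60 without serum. The cordycepin arrays lay below all others with an SD of 0.047, while the levels of both other groups overlapped. The difference from serum alone was -0.54 (SE 0.14, adjusted p = 0.0285), or 1.45-fold, which is under the minimum difference for a call. Serum and no serum differed by 0.13 (95% interval -0.22 to 0.49). Cordycepin plus serum and no serum differed by -0.40 (SE 0.15, adjusted p = 0.138).

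The other ligands gave little or no signal. The lowest level among probes well above background was between -5.62 and -4.78 on the 8 arrays. Areg (amphiregulin, chromosome 5, 91570090 to 91570149) read between -7.88 and -7.04 and was well above background on none of the arrays. Tgfa (transforming growth factor alpha, chromosome 6, 86224838 to 86224897) read between -7.33 and -5.77 and was likewise not well above it on any. Btc (betacellulin, chromosome 5, 91786948 to 91787007) was above background on serum replicate 1 only, at -5.44, and the other 7 arrays read -7.48 to -5.34. No difference between groups is given for these genes, since dim values carry only an upper bound. The Tgfa probe was printed in 10 spots on each array, and the SD over its spots was 0.35 to 1.00 log2 units, against 0.032 to 0.098 for the Egfr probe with 10 spots.

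No receptor gene was called in any comparison. Egfr, which encodes a receptor for the products of Hbegf and Ereg, was read by 3 probes. The brightest (chromosome 11, 16813815 to 16813874) read 0.77, 0.61 and 0.58 with cordycepin plus serum, 0.94, 0.81 and 1.15 with serum, and 0.94 and 0.67 without serum. The cordycepin arrays lay just below the serum arrays, by a gap of 0.036, and overlapped with those without serum. The difference from serum alone was -0.31 (95% interval -0.62 to -0.0045, adjusted p = 0.156) and did not pass the test. For serum against no serum it was 0.16 (95% interval -0.18 to 0.51). The other probes lie further left in the gene and are assigned to another RefSeq transcript by the array design. The probe at 16783556 to 16783615 read -2.62 to -1.97 over the 8 arrays, and that at 16787172 to 16787231 read -3.24 to -2.62. Their cordycepin differences of -0.23 (SE 0.17, adjusted p = 0.416) and 0.15 (SE 0.16, adjusted p = 0.575) had opposite signs and neither was called.

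Erbb2, which encodes a receptor that binds no known ligand and signals by pairing with other ErbB receptors, was read at chromosome 11, 98298103 to 98298162. It read 0.81, 1.33 and 0.75 with cordycepin plus serum, 1.48, 0.91 and 1.09 with serum, and 1.08 and 1.43 without serum. All groups overlapped. The cordycepin difference was -0.20 (95% interval -0.68 to 0.29, adjusted p = 0.562) and the serum difference -0.10 (95% interval -0.63 to 0.44). The SD over the 10 spots of Erbb2 was 0.038 to 0.058, smaller than its SD between serum arrays of 0.29. Erbb3, a neuregulin receptor (chromosome 10, 128006424 to 128006483), read -7.90 to -7.04 and was likewise detected on none of the arrays.

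Errfi1 showed the largest difference of the 6 tested genes in the cordycepin comparison. Its probe lies on chromosome 4, 150242886 to 150242945, plus strand. The serum arrays read 7.83, 8.11 and 7.65, the arrays without serum 5.57 and 5.65, and the cordycepin plus serum arrays 5.17, 4.69 and 4.50. No groups overlapped, and the order was serum, no serum, cordycepin plus serum. The log2 difference of cordycepin plus serum (4.79 ± 0.35, SD, n = 3) from serum alone (7.86 ± 0.23, SD, n = 3) was -3.08 (SE 0.19, adjusted p = 3.00e-05), rank 16 from the lowest of 30859 probes. Serum was higher than no serum (5.61 ± 0.059, SD, n = 2) by 2.25 (SE 0.22, adjusted p = 0.00177), rank 64 from the highest. Cordycepin plus serum was also below no serum, with a difference of -0.83 (SE 0.22, 95% interval -1.32 to -0.33, adjusted p = 0.0368), which is under the minimum difference for a call. Without cordycepin replicate 1 that difference was -1.02 (adjusted p = 0.0122) and was called.

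**Figure D3:**
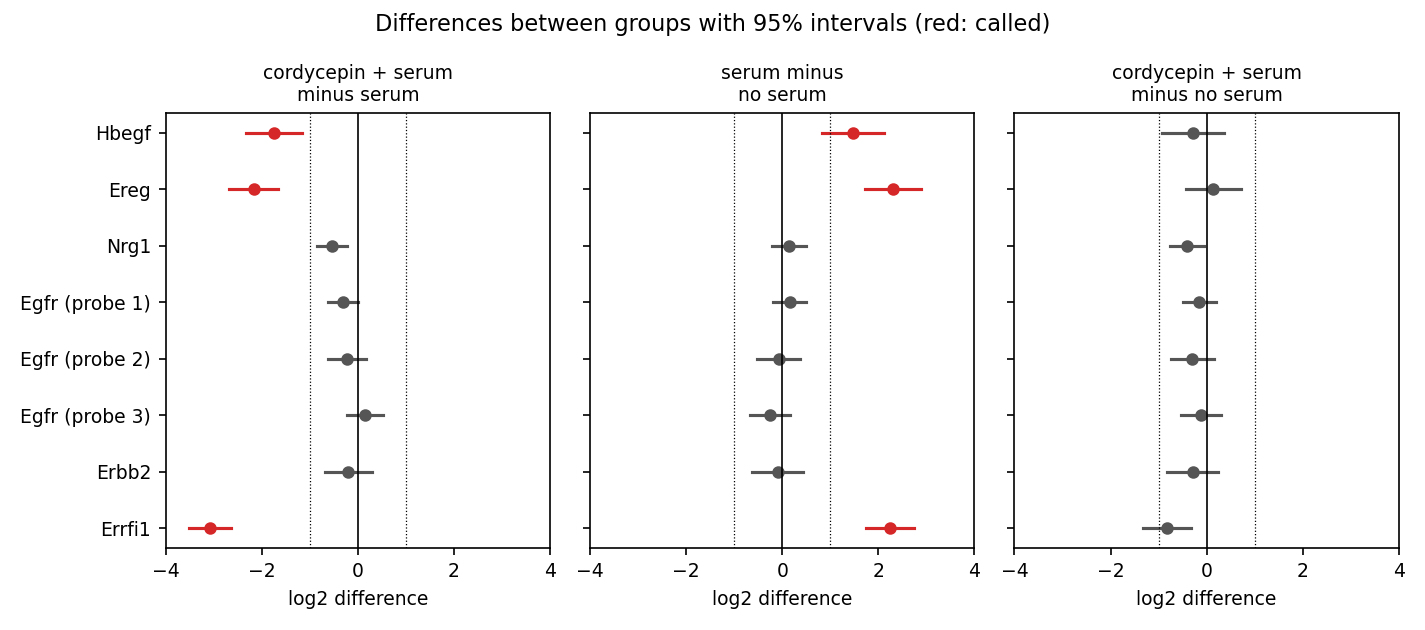
Log2 differences (horizontal axis) with 95% limma intervals for the 8 tested EGF family probes in the 3 comparisons; red marks called probes, dotted lines mark a difference of 1 in either direction. Hbegf, Ereg and Errfi1 are red on the left of the first panel and on the right of the second, and no probe is red in the third, where Errfi1 has an interval of -1.32 to -0.33.

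Of the 10 genes, 6 had a promoter window in the RefSeq table used (mouse build GRCm38.p6, a build other than that of the probes). Errfi1 was the only one of the 3 called genes among them and had 2 windows, for 2 transcription starts. Each window spans 250 bases before and 50 bases after the start and was searched on both strands for CRE (TGACGTCA), its shorter core (TGACG, which every CRE contains), a TATA box (TATAAA), AP-1 (TGANTCA), ETS (CCGGAAG), EGR (GCGNGGGCG) and the CArG box bound by serum response factor. The downstream window of Errfi1 and the window of Areg each held a CRE followed by a TATA box motif, which 1.79% and 13.6% of all 32851 windows hold. The CRE began at -51 and the TATA motif at -28 from the start in Errfi1, and at -61 and -31 in Areg. Both sequences are shown because these windows share a layout while Errfi1 was well above background on every array and rose with serum and Areg was not above background on any. The 250 bases before the start are printed 5′ to 3′ on the coding strand, with CRE and TATA in capitals, for Errfi1 at chr4:150854820-150855069 and for Areg at chr5:91139349-91139598, both on the plus strand.
Errfi1: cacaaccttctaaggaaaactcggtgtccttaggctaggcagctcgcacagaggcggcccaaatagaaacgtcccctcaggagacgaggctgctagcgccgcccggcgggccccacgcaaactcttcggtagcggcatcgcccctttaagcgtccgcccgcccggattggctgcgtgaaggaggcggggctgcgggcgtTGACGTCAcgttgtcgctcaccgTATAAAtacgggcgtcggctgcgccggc
Areg: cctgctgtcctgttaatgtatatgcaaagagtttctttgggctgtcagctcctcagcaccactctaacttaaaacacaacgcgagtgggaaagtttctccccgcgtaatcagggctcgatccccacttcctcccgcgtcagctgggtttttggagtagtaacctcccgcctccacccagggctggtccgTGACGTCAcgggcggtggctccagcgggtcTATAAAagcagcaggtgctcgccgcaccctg
No AP-1, EGR or CArG box motif was found in any of the 7 windows of the 6 genes, against 7.81%, 5.55% and 1.63% of all windows. Windows of 4 of the 6 genes held the shorter CRE core (20.8% of all windows), and that of Egfr held an ETS motif (8.86% of all windows). These are matches of letters, not measured binding sites.

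The third comparison, cordycepin plus serum against no serum, asked whether the genes stood at the level of starved cells. Of the 8 EGF family probes, 0 were called, beside 6.46% of all probes called higher and 3.08% lower. By limma without adjustment, 2 had a p under 0.05, Nrg1 and Errfi1, both lower with cordycepin. The intervals for Hbegf (-0.92 to 0.37) and Ereg (-0.44 to 0.71) included 0 and also differences of up to 0.92 and 0.71 in size. This comparison shares the cordycepin arrays with the first and the arrays without serum with the second.

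Within groups, replicate 3 gave the lowest level of Hbegf, Ereg and Errfi1 among both the cordycepin and the serum arrays. Serum replicate 3 gave the highest level of Nrg1 and of Egfr. Leaving out any single array did not end the call of Hbegf, Ereg or Errfi1 for the cordycepin effect, nor did any of the other settings tried. The settings with looser cutoffs could not have ended a call. Over all of these alternatives the difference was -1.98 to -1.56 for Hbegf, -2.34 to -1.98 for Ereg and -3.27 to -2.93 for Errfi1.

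The rest of the pathway was described with 6 lists of 63 genes, of which 59 were tested, each on its brightest probe. The receptor Erbb4 and the ligands Nrg2, Nrg3 and Nrg4 were not well above background on all arrays of any group. With cordycepin, 1 of the 59 genes was called higher (Epgn) and 2 were called lower (Pik3cb and Socs5), beside 7.56% and 2.99% of all probes. The median difference was -0.013, against 0.085 over all probes. Without adjustment, limma gave a p under 0.05 for 5 higher and 12 lower genes, with no share of all probes at that cutoff to set beside them. With serum 0 of 59 were called in limma, beside 0.878% of all probes called higher and 0.898% lower. On the brightest probes 0 of these genes had an unadjusted p under 0.05. The median serum difference was 0.040, with single genes between -0.45 and 0.35.

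**Figure D4:**
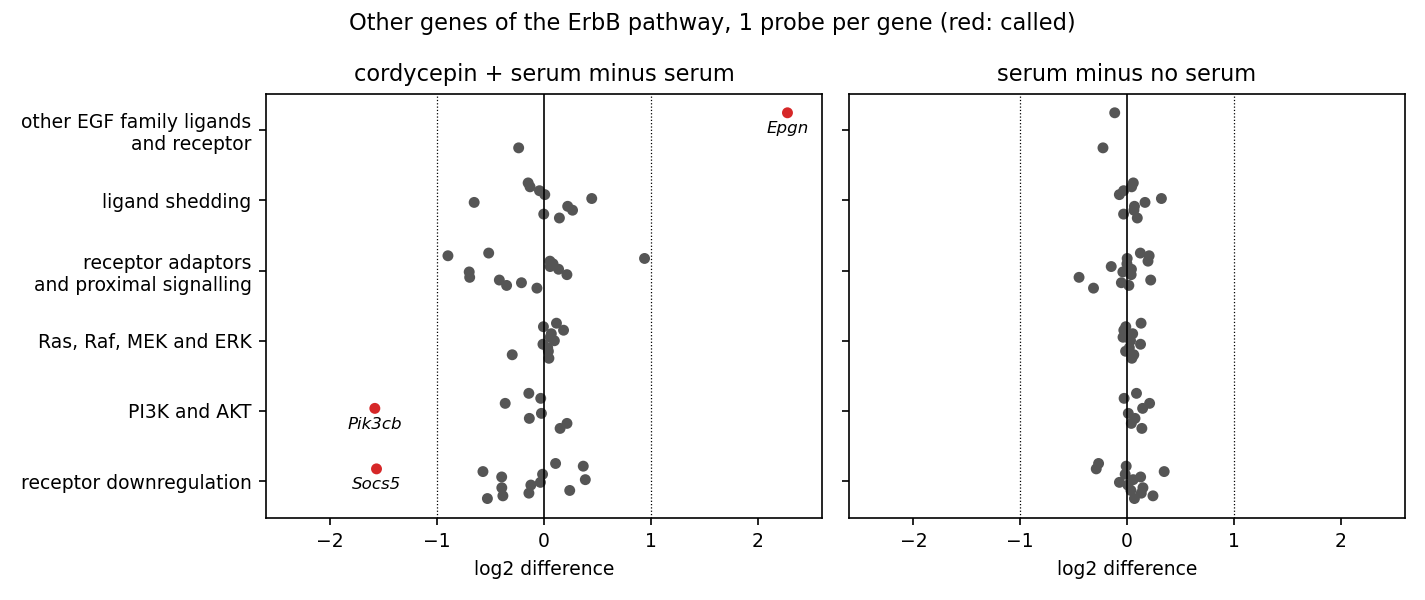
Log2 differences (horizontal axis) of 59 other ErbB pathway genes by role, 1 probe per gene, for cordycepin plus serum minus serum (left) and serum minus no serum (right); dotted lines mark 1 in either direction and red marks called genes. Epgn, Pik3cb and Socs5 are called on the left, and all genes lie between -0.45 and 0.35 on the right.

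Pik3cb encodes a catalytic subunit of PI3K. It read -1.59, -1.20 and -0.98 with cordycepin plus serum, 0.44, 0.33 and 0.21 with serum, and 0.055 and 0.31 without serum. The log2 difference of cordycepin plus serum was -1.58 from serum alone (SE 0.17, adjusted p = 0.000354) and -1.44 from no serum (SE 0.19, adjusted p = 0.00155). The other 7 genes of the PI3K and AKT list were not called. Socs5, which encodes a suppressor of cytokine signalling that promotes the degradation of EGFR, read 1.31, 1.95 and 1.66 with cordycepin plus serum, 3.36, 3.15 and 3.12 with serum, and 3.41 and 3.58 without serum. The difference was -1.57 from serum alone (SE 0.17, adjusted p = 0.000385) and -1.86 from no serum (SE 0.19, adjusted p = 0.000456). Both genes had cordycepin arrays below all other arrays, and neither moved with serum beyond the test, with differences of 0.15 (SE 0.19) and -0.29 (SE 0.19).

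None of the 10 genes for ligand shedding, the 14 for receptor adaptors and proximal signalling and the 11 for Ras, Raf, MEK and ERK was called with cordycepin on its brightest probe. Over all probes 7.56% were called higher and 2.99% lower. At an unadjusted limma p under 0.05 there were 2, 6 and 0 genes of these lists, in that order. On the brightest probes the differences lay between -0.30 and 0.18 for the Ras to ERK genes, -0.65 and 0.45 for the shedding list and -0.90 and 0.94 for the adaptor list. Of the 14 genes for receptor downregulation, Socs5 was called, 2 higher and 5 lower had an unadjusted p under 0.05, and the median was -0.13. A further 33 probes for 24 of the 59 genes were tested. With cordycepin 3 of these were called lower and 0 higher, beside 2.99% and 7.56% of all probes. Adam19, a metalloprotease gene of the shedding list, had a dimmer probe at -1.82 (SE 0.34, adjusted p = 0.00637), above background on 2 of the 3 cordycepin arrays, beside -0.65 on its brightest probe. Rnf41, which encodes a ubiquitin ligase of ErbB3, had a dimmer probe at -1.06 (SE 0.13, adjusted p = 0.000601) beside -0.40. The probes of Adam19 and Rnf41 were also called lower against no serum, at -1.78 and -1.04. With normexp correction neither was called for the cordycepin effect, at -0.58 and -0.90. With spike-in centring that of Rnf41 was not called, at -1.07 with a larger SE of 0.50 (adjusted p = 0.324). Against no serum the Adam19 call was also lost without either no serum replicate (adjusted p = 0.121 and 0.0608), and that of Rnf41 without cordycepin replicates 1 or 3 (-0.981 and -0.999), under the minimum difference. The summed linear level of a leukocyte marker list was 32.8 to 41.3 on the cordycepin arrays, 19.1 to 21.3 on the serum arrays and 17.6 to 22.5 without serum. Of the 4 markers of this list that were tested, 1 was called, Cd68, higher by 3.02 (SE 0.21, adjusted p = 4.79e-05), and Ptprc, the defining pan-leukocyte marker, was not well above background on all arrays of any group. Without Cd68 the sums were 25.3 to 31.7, 18.2 to 20.0 and 16.7 to 21.2. Itgam was the brightest gene left, with mean levels of 4.65 with cordycepin plus serum and 4.03 with serum (limma difference 0.62, adjusted p = 0.0219). Csf1r differed by 0.51 (adjusted p = 0.0814) and Cd3e by 0.12 (adjusted p = 0.714). All 4 tested markers thus read higher with cordycepin plus serum than with serum, though only Cd68 was called. Ptprc, at -5.49 against -5.37, was well above background on only 3 arrays and was not tested. The part of these markers in the results for EGF family genes was not tested, nor can fewer cells and less RNA per cell be told apart in bulk RNA.

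For each of the 3 called genes, the genes most alike over the 8 arrays were taken by Pearson's correlation. The 12543 candidates were genes outside the EGF family with a RefSeq mRNA accession and a gene symbol. Each was well above background on all 8 arrays, so genes undetected in 1 group could not appear. The arrays of a group share their treatment, so these values describe the arrays and carry no test. Hbegf was most like Id1 (r = 0.992), an inhibitor of basic helix-loop-helix factors, Plau (0.991), the urokinase-type plasminogen activator, and Bcl6 (0.986), a transcriptional repressor. For Ereg, Kank1 (0.996) and Topors (0.992) were among the 3 most alike. Errfi1 was most like Plekhg2 (0.991), F3 (0.988), which encodes tissue factor, and Bcl6 (0.988).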

How the data were processed

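The 8 arrays were 1-colour Agilent arrays of NIH3T3 RNA labelled with Cy3, described in the labels as independent samples, all on 1 slide. The deposited files hold scanner intensity per spot on a linear scale, which the authors extracted with Feature Extraction 10.7.3.1 (per the file headers), with local background subtracted. Of 62976 spots, 3671 control spots and spots marked as outliers were left out. The log2 of the processed signal was averaged over spots of a probe, and the 75th percentile of the array over probes was subtracted, so a change shared by most transcripts is not seen. Groups came from the labels. A limma fit (3.58.1, R 4.3.3) to all 8 arrays gave each group a mean, without covariates. Two-sided p-values were adjusted over the 30859 probes with the Benjamini-Hochberg method. The study's methods name limma and no normalisation. The calculation was tested on simulated data. The few arrays per group limit the precision.

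The EGF family genes, the pathway lists and the tests were chosen with earlier results of these data known. The genes named were all 10 EGF family genes, every listed pathway gene called in any comparison, and the 3 genes most alike to each called member. Single genes of these lists are not reported here. Mthfd2l, Cd68, the marker genes named and the dimmer probes of Adam19 and Rnf41 were chosen for naming with their values known. The brightest probe stood for a gene with several, and counting a gene by any of its probes was an alternative chosen after seeing the data, as was taking the percentile over spots. Marker genes of fibroblasts, leukocytes, endothelial and epithelial cells were looked up. Probe positions are those of the files (mm9), and exon or UTR positions were not analysed here. Alternatives tried were normexp correction (offset 50), quantile, spike-in and other percentile scalings, other filters and thresholds, only the 2 groups compared, blocks, and leaving out each array.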

Additional observations from a re-analysis of the deposited data

How the results depend on the processing

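The cordycepin calls of Hbegf, Ereg and Errfi1 were kept under all 21 alternatives, and so were those of Epgn, Pik3cb and Socs5 in both cordycepin comparisons. Counting a gene by any of its tested probes gave 6 pathway genes called in place of 3 in each cordycepin comparison, 1 higher and 5 lower, Adam19 and Rnf41 among those added. With spike-in centring 0 EGF family probes were called for the serum effect, in place of 3. The SE of these 3 serum differences was 0.56 with that centring, larger than in the main fit, and the cause was not tested. Without a minimum fold change, 1 EGF family probe (Errfi1) was called for cordycepin plus serum against no serum, in place of 0, and the pathway genes called were 9 in place of 3 for the cordycepin effect and 8 in place of 3 against no serum, since the threshold itself was lower. Leaving out single arrays gave 0 to 1 EGF family probes called against no serum, the 1 being Errfi1 without cordycepin replicate 1.

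Differences that changed sign were all of probes not called in that comparison. With normexp correction the serum difference was 0.011 for the Egfr probe at 16783556 and 0.10 for Epgn, and that of the Egfr probe at 16787172 against no serum was 0.14. Quantile normalisation gave the latter probe -0.10 for the cordycepin effect. Spike-in centring gave serum differences of -0.21 for the brightest Egfr probe, -0.24 for Nrg1, -0.31 for Mthfd2l, -0.23 for Pik3cb, -0.33 for the dimmer Adam19 probe and -0.35 for that of Rnf41, and against no serum -0.24 for Ereg and -0.053 for Mthfd2l. The percentile over probes detected on all arrays gave -0.0023 for the dimmer Rnf41 probe with serum. Slide row as a block gave 0.040 for Cd68 with serum. Leaving out single arrays gave ranges that crossed 0 for the serum differences of Cd68 (-0.33 to 0.29), the Egfr probe at 16783556 (-0.15 to 0.046), Epgn (-0.33 to 0.073), Erbb2 (-0.27 to 0.074), Nrg1 (-0.035 to 0.30) and the dimmer probes of Adam19 (-0.18 to 0.27) and Rnf41 (-0.030 to 0.091), and for the differences from no serum of Ereg (-0.074 to 0.35) and the Egfr probe at 16787172 (-0.34 to 0.11).

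Replicate numbers did not pair the samples: the deviations of same-numbered arrays from their group means correlated at -0.17 to 0.23 over 7 pairs, with 2 of 7 above 0.1, and 3 of 8 arrays correlated best with their own number. With the replicate block, 3, 3 and 0 EGF family probes were called in the 3 comparisons, as without it, and over all probes the cordycepin effect had 2318 higher and 923 lower calls, against 2333 and 922. The 2 arrays without serum limit both comparisons that use them. Calls over all probes differed by over 1.5 times, in 1 direction or both, as follows. For the serum effect (271 higher, 277 lower) they were 174 and 58 with normexp, 55 and 182 with spike-in centring, 135 and 91 without the filter, 248 and 144 for probes above background on all arrays, 207 and 156 with only both groups fitted, 400 and 606 at unadjusted p, and 207 and 491 or 124 and 142 without no serum replicate 1 or 2. For the cordycepin effect they were 891 and 408 with normexp, 1660 and 427 with spike-in centring, 1102 and 718 for probes above background on all arrays, and 3614 and 2379 without a minimum fold change. Against no serum (1994 and 949) the same settings gave 1036 and 349, 856 and 662, 1012 and 678, and 2799 and 1898.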
